A study of Mus musculus with 6 samples.

Results

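The NF-kB module examined here is a list of 43 genes: chemokines, cytokines and growth factors that senescent or inflamed fibroblasts can secrete, NF-kB subunits and inhibitors, and other targets of this transcription factor. Each gene was chosen by name and read from its brightest probe set, by the mean over all arrays, among probe sets that carry its symbol alone. Of the 43 genes, 40 had such a probe set, among 18193 genes of the array that did. Nfkb1, Areg and Il1rl1 are not analysed here. A further 6 members (Cxcl2, Csf2, Il1a, Tnf, Traf1 and Lcn2) had a mean signal under 39.4, the limit below which the dimmest 40% of probe sets were left out. This left 34 members among 13038 genes, or 27022 probe sets, that were tested.

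RNA was measured on 6 Affymetrix arrays, 1 per culture, from mouse embryonic fibroblasts of C57BL/6 E13.5 embryos, grown to passage 3 in medium with fetal calf serum. Cultures lacking Zmpste24 (Zmpste24-/-, 3 cultures) were compared with wild-type cultures (WT, Zmpste24+/+, 3 cultures). Zmpste24 encodes the metalloprotease that processes prelamin A, and the study set young cultures with and without it side by side. Cultures are numbered 1 to 3 within a genotype, and those of equal number are called a pair below, although the labels leave out what the members of a pair share. Nothing in the labels says that cultures were stressed or stimulated.

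The values are linear probe set signals as the authors deposited them, with a trimmed mean of 500 on every array, and median signal lay between 56.1 and 70.3. Zmpste24 had 365, 182 and 226 in the Zmpste24-/- cultures, against 3850, 2249 and 2043 in the WT cultures. Both cultures numbered 1 stood apart: their log2 signals correlated at 0.983 across probe sets with each other and at 0.953 to 0.959 with the other 4, which correlated among themselves at 0.98 to 0.984. Xist, the RNA of the inactive X chromosome, was at 4766 to 6669 in the Zmpste24-/- cultures and at 5324, 69.3 and 43.7 in WT cultures 1, 2 and 3. In pairs 2 and 3 genotype and the sex of the embryo therefore cannot be told apart, and results with and without number 1 are given below. In such bulk RNA, fewer cells of a type and less RNA per cell cannot be told apart either.

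NF-kB is a dimer of Rel-family proteins that inhibitors of the IkB family hold in the cytoplasm. Signals from tumour necrosis factor, interleukin 1 or Toll-like receptors destroy the inhibitor, and the freed dimer enters the nucleus and binds kappaB sites in its target promoters. The targets include chemokines, adhesion molecules and the inhibitors themselves, which gives a negative feedback. In fibroblasts the same genes make up a large share of what is secreted during senescence. Several of them also need other factors, such as interferon regulatory factors for Ccl5 and Cxcl10.

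The promoters below belong to the 4 members on which the results turn: Ptx3 and Cxcl10, which differed in 1 direction between the genotypes in all pairs, and Icam1 and Ptgs2, which differed most, in opposite directions, between culture number 1 and the others. Each is the strand of the gene, 5′ to 3′, over the 250 bases before the transcription start that RefSeq gives in build GRCm38.p6, with 10 bases after it for Ptx3. Capitals mark matches to the kappaB-type motifs GGANNTTCC, where N is any base, and GGGA-NN-TCCC, and to the interferon response motif GAAA-NN-GAAA, searched on both strands; the kappaB-type motifs can overlap each other.
Ptx3, chr3:66219637-66219896, plus strand: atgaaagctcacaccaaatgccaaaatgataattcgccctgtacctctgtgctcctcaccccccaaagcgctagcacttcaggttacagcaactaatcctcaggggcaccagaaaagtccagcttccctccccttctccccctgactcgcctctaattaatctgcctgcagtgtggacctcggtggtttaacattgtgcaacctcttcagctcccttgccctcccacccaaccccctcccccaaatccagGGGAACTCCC
Cxcl10, chr5:92348890-92349139, minus strand: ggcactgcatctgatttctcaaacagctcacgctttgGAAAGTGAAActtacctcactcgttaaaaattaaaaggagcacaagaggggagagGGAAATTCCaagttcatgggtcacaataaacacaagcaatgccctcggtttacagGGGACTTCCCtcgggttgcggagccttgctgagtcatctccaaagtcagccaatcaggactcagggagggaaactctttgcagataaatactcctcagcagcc
Icam1, chr9:21015690-21015939, plus strand: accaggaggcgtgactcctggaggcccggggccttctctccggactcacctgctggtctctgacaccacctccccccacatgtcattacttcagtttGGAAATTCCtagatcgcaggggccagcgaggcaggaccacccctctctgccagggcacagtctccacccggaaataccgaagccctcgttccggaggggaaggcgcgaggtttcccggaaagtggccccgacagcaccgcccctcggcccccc
Ptgs2, chr1:150099781-150100030, plus strand: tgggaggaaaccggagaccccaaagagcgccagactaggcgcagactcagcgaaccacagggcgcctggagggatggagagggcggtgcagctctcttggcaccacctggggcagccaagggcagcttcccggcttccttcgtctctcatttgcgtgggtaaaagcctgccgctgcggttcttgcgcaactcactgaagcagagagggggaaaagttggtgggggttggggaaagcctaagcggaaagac
Relative to the start, the matches in Cxcl10 lie at -213 to -204 (GAAA-NN-GAAA), -158 to -150 (GGANNTTCC) and -103 to -94 (GGGA-NN-TCCC). In Icam1 the match to GGANNTTCC lies at -153 to -145, and in Ptx3 the match to GGGA-NN-TCCC covers bases 1 to 10 after the start. Over windows from 250 bases before to 50 bases after the start, 34 members had an entry, in 42 windows. Of these 34 members, 14 held at least 1 of the kappaB-type motifs, in 16 of the 42 windows, against 4.88% of all 32851 windows. GAAA-NN-GAAA was in 3 member windows (Cxcl10, Cxcl14 and Saa3), against 3.44% of all. A match of these letters is a description and no measurement of binding. Ccl2, Ccl5, Ccl7, Cxcl5, Cxcl16, Ereg, Nfkb1, Relb and Vcam1 had no entry.

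Between the genotypes the module showed no common shift, and none of its members was called. Ptx3 was higher in every Zmpste24-/- culture than in any WT culture, and Ccl5 was lower. Differences below are log2 differences of signal + 16, Zmpste24-/- minus WT. Of the 34 tested members 15 were higher and 19 lower in Zmpste24-/-, with a median log2 difference of -0.04, beside -0.0048 over all tested probe sets. The median size of the difference, without its sign, was 0.115 for members and 0.116 for all probe sets. In limma without a block, with a Benjamini-Hochberg adjusted p under 0.05 as the threshold, 0 members were called, beside 0.0% of all probe sets. The lowest adjusted p of a member was 0.99985, and 2 members had an unadjusted p under 0.05, beside 1.29% of all probe sets.

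With culture number as a block, 0 members were called, beside 0.0185% of all probe sets. The lowest adjusted p of a member was then 0.197, for Ptx3, and 5 members had an unadjusted p under 0.05, beside 8.99% of all. In cultures 2 and 3 alone, 0 members were called, beside 0.074% of all probe sets, and 5 had an unadjusted p under 0.05, beside 6.09%. The groups did not overlap for 1 member higher in Zmpste24-/- (2.22% of all probe sets) and 1 lower (3.03%). In all pairs 11 members kept 1 direction (31.9% of all probe sets), 6 of them higher in Zmpste24-/- (15.8%) and 5 lower. The median over members was -0.10, 0.02 and -0.09 in pairs 1, 2 and 3. The median standard error of a member's difference was 0.29 without the block and 0.125 with it. Zmpste24 itself, with a difference of -3.31 (SE 0.34), had an adjusted p of 0.987 without the block and 4.0e-05 with it. A count of 0 without the block therefore says little about the members.

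**Figure D1:**
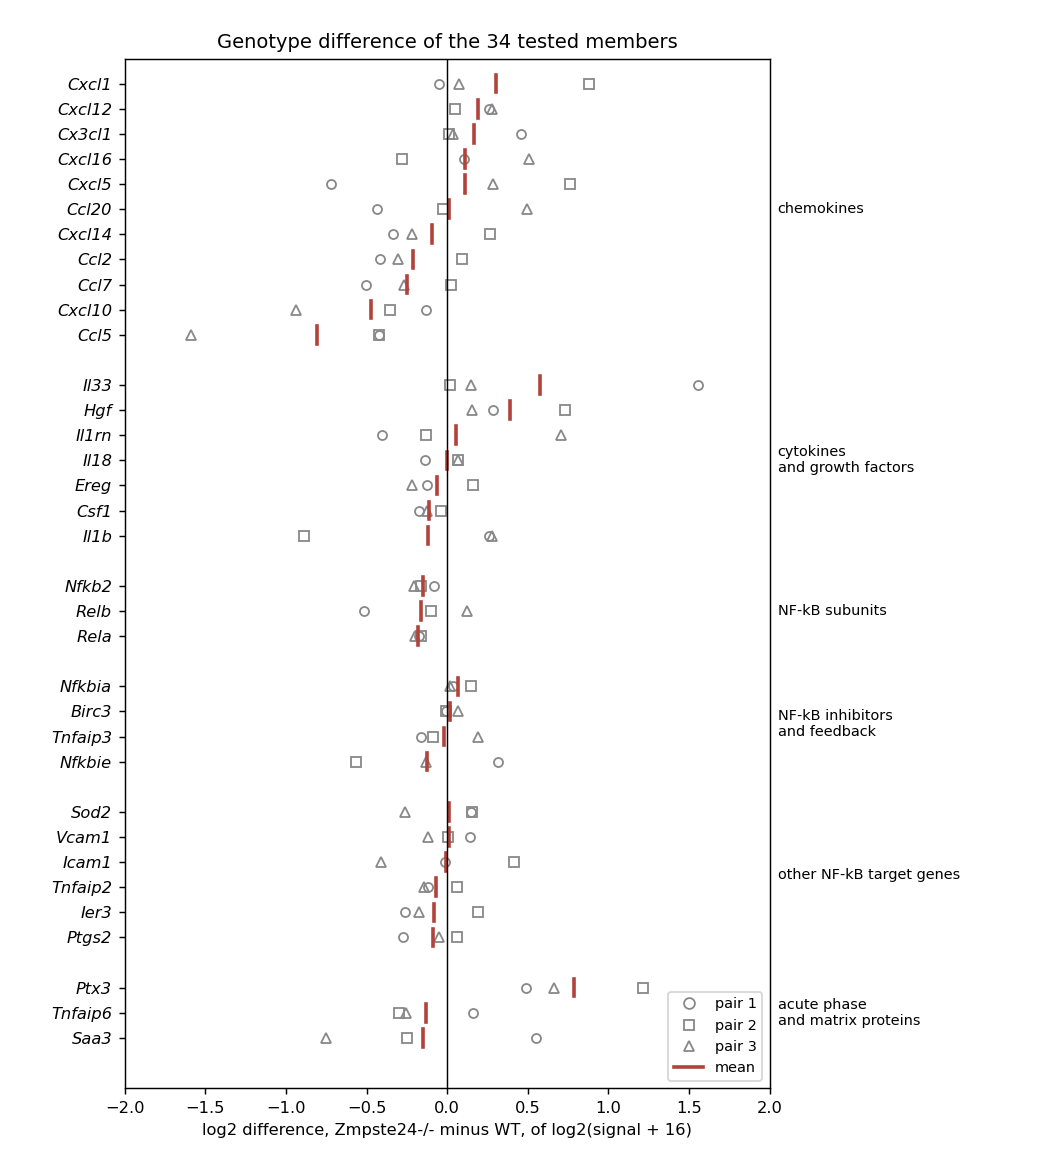
Log2 difference in signal, Zmpste24-/- minus WT, for the 34 tested members, ordered by role. Open symbols are the same-numbered pairs and red bars their mean. Ptx3, Il33 and Hgf lie to the right in all 3 pairs and Ccl5 and Cxcl10 to the left. The means of 28 members lie within 0.3 of 0, beside 84.1% of all probe sets.

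Among the 12 chemokines, 11 were tested, and 6 were higher and 5 lower in Zmpste24-/-. The larger differences were those of Ccl5 and Cxcl10, which attract T cells and are induced by interferon as well as by NF-kB. Ccl5 had a signal of 71.3, 94.3 and 46.9 in Zmpste24-/- cultures 1, 2 and 3, against 101, 132 and 173 in WT cultures 1, 2 and 3. The groups did not overlap, and the difference was -0.81 (SE 0.29, unadjusted p = 0.029 in limma). Cxcl10 had 56.5, 67.7 and 55.2 in Zmpste24-/- cultures, against 63.3, 90.8 and 120 in WT cultures. It was lower in each pair, but Zmpste24-/- culture 2 lay above WT culture 1, and the difference was -0.47 (SE 0.25). In pair 1, whose embryos were of like sex by Xist, the differences were -0.42 for Ccl5 and -0.13 for Cxcl10. Without WT culture 3 they were -0.63 and -0.28. Without number 1 they were -1.01 and -0.64, with limma adjusted p of 0.588 and 0.792.

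Macrophages also make Ccl5 and Cxcl10. The 22 macrophage markers summed to 18500, 2232 and 2254 in Zmpste24-/- cultures 1, 2 and 3, against 10585, 2624 and 3405 in WT cultures 1, 2 and 3. That sum was thus lower in Zmpste24-/- in pairs 2 and 3, as Ccl5 and Cxcl10 were, and higher in pair 1, where they were not. Its part in the difference of these chemokines was not tested.

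Ccl2 and Ccl7 attract monocytes and are neighbouring genes with 0 protein-coding genes between them. Ccl2 had 6463, 4218 and 3956 in Zmpste24-/- cultures 1, 2 and 3, against 8644, 3951 and 4888 in WT cultures. Ccl7 had 5684, 2650 and 2644 in Zmpste24-/- cultures, against 8065, 2610 and 3188 in WT cultures. Both were at their highest in the cultures numbered 1 of either genotype. There Zmpste24-/- was lower, by 0.42 for Ccl2 and 0.50 for Ccl7 on the log2 scale, and the differences over all cultures were -0.21 (SE 0.33) and -0.25 (SE 0.49).

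Cxcl1, Cxcl2 and Cxcl5 attract neutrophils. Cxcl5 had 1562, 1516 and 1686 in Zmpste24-/- cultures, against 2585, 887 and 1383 in WT cultures. The WT values thus spanned the Zmpste24-/- values on both sides, and the pair differences were -0.72, 0.76 and 0.28. Cxcl5 is named here because 1 fit with an array left out called its interaction with culture number. Cxcl1 ranged from 780 to 942 in Zmpste24-/- cultures and from 505 to 964 in WT cultures, with a difference of 0.30 (SE 0.26). Its other probe sets differed by 0.0042 and 0.66, so that they disagreed on the size. For the dimmest of them the groups did not overlap (601 to 776 in Zmpste24-/- and 294 to 588 in WT), as for 2.22% of all probe sets in this direction. Cxcl2, below the limit on signal, had 80.0 and 53.9 in Zmpste24-/- and WT culture 1 and at most 27.7 in the other 4 cultures.

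Cxcl12, the chemokine by which stromal cells retain blood progenitors, is not a typical NF-kB target. It had 15988, 8388 and 9533 in Zmpste24-/- cultures, against 13381, 8104 and 7876 in WT cultures. It was higher in Zmpste24-/- in each pair by a small amount (0.26, 0.05 and 0.28), with a mean of 0.19 (SE 0.056 with the block, adjusted p = 0.430). Its second probe set differed by 0.28 and its dimmest by -0.09. The second had 4513, 2624 and 3246 in Zmpste24-/- cultures, against 2778, 2933 and 2619 in WT cultures. That probe set was thus lower in Zmpste24-/- in pair 2. Cxcl14 differed by -0.10, Cxcl16 by 0.11, Cx3cl1 by 0.17 and Ccl20 by 0.01, each less than its standard error without a block. The second Cxcl14 probe set had 1046, 309.8 and 330 in Zmpste24-/- cultures and 1584, 456 and 366 in WT cultures. It was lower in each pair, with a mean log2 difference of -0.42 (limma unadjusted p = 0.0080 with the block). In the same fit the brighter probe set had an unadjusted p of 0.42, and 8.99% of all probe sets had one under 0.05. For Cx3cl1, a chemokine tethered to the membrane, Zmpste24-/- culture 1 alone was high, at 648, while the other 5 cultures lay between 446 and 467.

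Of the 11 cytokines and growth factors, 7 were tested, and 4 were higher and 3 lower in Zmpste24-/-. Il33, an alarmin of the interleukin 1 family kept in the nucleus, had 190, 44.0 and 47.1 in Zmpste24-/- cultures, against 54.2, 43.2 and 40.9 in WT cultures. Zmpste24-/- culture 1 alone stood out, and the other 5 cultures lay close together. The difference was 0.58 (SE 0.49), and it was -0.0068 when that culture was left out. Hgf, the growth factor that acts through the receptor Met, had 165, 106 and 116 in Zmpste24-/- cultures, against 132, 57.5 and 103 in WT cultures. The groups overlapped, and Hgf was higher in Zmpste24-/- in each pair, with a mean of 0.39 (SE 0.31). Without WT culture 2 the difference was 0.11. Of its other probe sets, 1 differed by 0.42 and 1 by -0.03.

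The interleukin 1 group was otherwise low or without a common direction. Il1b ranged from 35.2 to 67.9 in Zmpste24-/- cultures and from 41.8 to 78.6 in WT cultures. Il1a, below the limit on signal, was at 15.6 to 19.5 in Zmpste24-/- cultures and at 7.94 to 13.0 in WT cultures, levels too dim to order. Il1rn, the soluble antagonist of the interleukin 1 receptor, ranged from 788 to 1369 in Zmpste24-/- cultures and from 686 to 1813 in WT cultures. Il18 differed by 0.0011, Csf1, the growth factor of macrophages, by -0.11 (SE 0.14), and the epidermal growth factor receptor ligand Ereg by -0.06. Tnf and Csf2 did not exceed 11.0 and 17.7 in any culture.

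The NF-kB subunits of the module differed little by their brightest probe sets, and all 3 of them that were tested were lower in Zmpste24-/-. Rel, a subunit counted among the other pathway genes below, was not. It had 76.8, 101 and 127 in Zmpste24-/- cultures, against 48.3, 115 and 93.5 in WT cultures. Its difference was 0.25 (SE 0.32), without 1 direction in all pairs. Rela, which encodes the transactivating subunit p65, was lower in each pair by nearly the same amount (-0.18, -0.17 and -0.20). Its values were 1844 to 2197 in Zmpste24-/- cultures and 2085 to 2466 in WT cultures, which overlap. With the block the mean difference was -0.18 (SE 0.068, adjusted p = 0.521). Nfkb2, the precursor p100 of the noncanonical pathway, differed by -0.15 (SE 0.22), and Relb, its partner, by -0.16 (SE 0.23). The second and dimmer Nfkb2 probe set differed by -0.41 (limma unadjusted p = 0.072 with the block). It had 127, 86.0 and 80.0 in Zmpste24-/- cultures, against 137, 168 and 100 in WT cultures, lower in each pair.

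Nfkbia encodes IkB-alpha, the inhibitor that NF-kB induces within its own feedback loop. It had 6063, 7149 and 6991 in Zmpste24-/- cultures, against 5923, 6462 and 6913 in WT cultures. It was higher in Zmpste24-/- in each pair by a small amount (0.03, 0.14 and 0.02), the ranges overlapped, and the mean difference was 0.07 (SE 0.12), or 0.0071 without WT culture 1. The 4 other probe sets differed by 0.08 to 0.18. For 1 of them the groups did not overlap (4571 to 4776 in Zmpste24-/- and 4076 to 4413 in WT), as for 2.22% of all probe sets in this direction. Tnfaip3, which encodes the deubiquitinating enzyme A20, differed by -0.02 (SE 0.32), Nfkbie by -0.13 (SE 0.30) and Birc3, a ubiquitin ligase of the receptor complex, by 0.02 (SE 0.16). Birc3 was also the steadiest across cultures, from 517 to 598 in Zmpste24-/- and from 521 to 569 in WT. Traf1 stayed at or under 56.7 in every culture.

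Other target genes showed means near 0 between the genotypes. Icam1, the adhesion molecule that leukocyte integrins bind, had 2783, 593 and 429 in Zmpste24-/- cultures, against 2813, 442 and 576 in WT cultures. Ptgs2, the inducible cyclooxygenase of prostaglandin synthesis, had 1556, 4451 and 4084 in Zmpste24-/- cultures, against 1889, 4265 and 4235 in WT cultures. Ier3, an immediate early gene, had 2911, 5876 and 4667 in Zmpste24-/- cultures, against 3500, 5146 and 5271 in WT cultures. Each of these genes thus had 1 Zmpste24-/- and 1 WT culture, those numbered 1, on the same side of the other 4. Their genotype differences were -0.0046 (SE 0.147 with the block), -0.09 (0.078) and -0.08 (0.089). Sod2, the mitochondrial superoxide dismutase, had 3182, 3511 and 2887 in Zmpste24-/- cultures, against 2875, 3158 and 3468 in WT cultures, with no constant direction. Vcam1, the other adhesion molecule, differed by 0.01 and Tnfaip2 by -0.07.

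Ptx3 had the largest positive difference of the module and lies among secreted proteins of the acute phase and the matrix. It encodes a long pentraxin that binds microbes and complement and helps to build hyaluronan matrix. Ptx3 had 4195, 3882 and 4645 in Zmpste24-/- cultures 1, 2 and 3, against 2983, 1664 and 2931 in WT cultures 1, 2 and 3. The ratio of Zmpste24-/- to WT was 1.41, 2.33 and 1.58 in pairs 1, 2 and 3. The difference was 0.79 (SE 0.25, limma unadjusted p = 0.016) without a block. With the block its SE was 0.125 and its adjusted p = 0.197, so that it did not pass. In pair 1, of like sex by Xist, the difference was 0.49, and without number 1 it was 0.94. Without WT culture 2, the lowest, it was 0.51. The second and dimmer Ptx3 probe set had 112.8, 71.0 and 55.7 in Zmpste24-/- cultures, against 118, 50.5 and 78.2 in WT cultures, with a difference of -0.02. The probe sets therefore disagreed. Tnfaip6, a hyaluronan-binding protein that Ptx3 works with in the matrix, differed by -0.13 (SE 0.34).

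**Figure D2:**
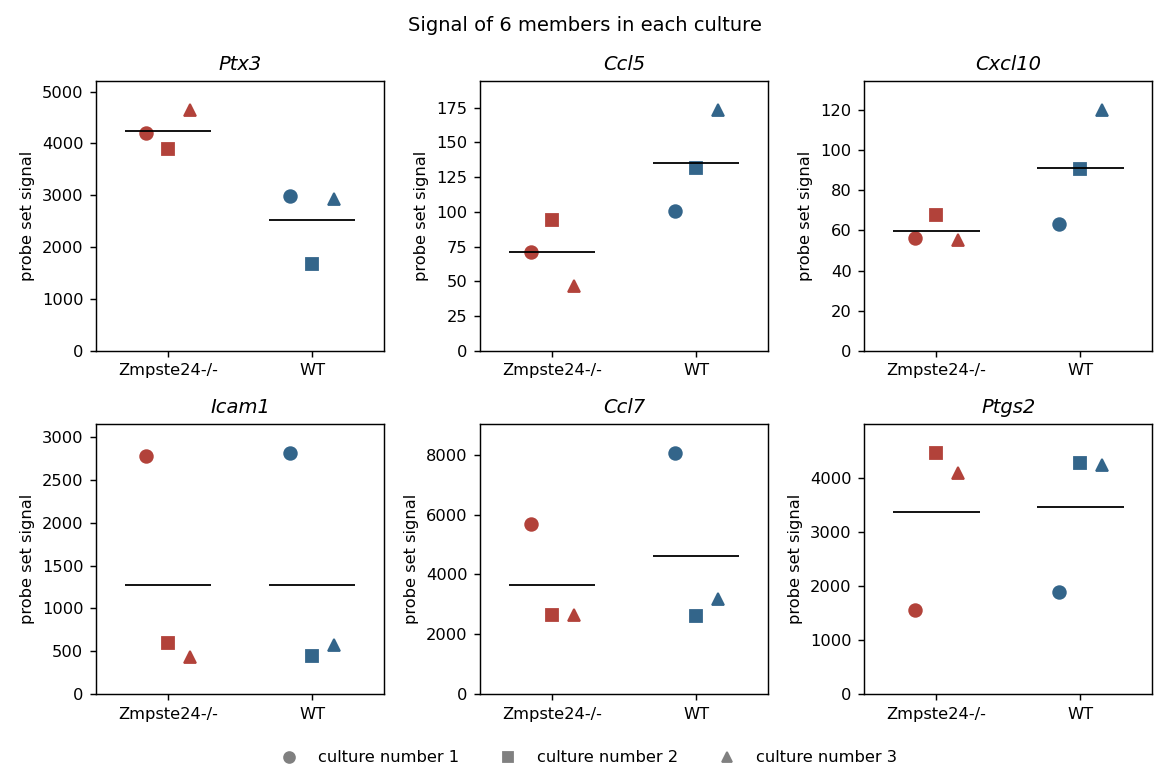
Probe set signal of 6 members in each culture, Zmpste24-/- on the left and WT on the right, with a line at each mean (3 cultures per genotype). Ptx3 and Ccl5 separate by genotype, whereas Icam1, Ccl7 and Ptgs2 separate culture number 1 (circles) from the others.

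For most members, as for most probe sets, the gap by culture number was larger than the genotype difference, and gaps occurred in both directions. The gap between the mean log2 signal of the number 1 cultures and that of the other 4 was larger than the genotype difference for 29 of the 34 members, beside 78.8% of all probe sets. Both number 1 cultures lay above the other 4 for 13 members (31.2% of all probe sets) and below them for 9 (27.2%). The median size of the gap was 0.56 for members and 0.39 for all probe sets. Number 1 was singled out because it stood apart over all genes, so these values are a description with no test, and the shares are near those of all probe sets. A gap of 1 log2 unit or more above was found for 4 members (8.55% of all probe sets) and below for 1 (5.54%).

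The 13 members higher in number 1 were 6 chemokines (Ccl2, Ccl7, Cxcl12, Cxcl14, Cxcl16 and Cx3cl1), 4 cytokines and growth factors (Il1rn, Il18, Il33 and Hgf), Icam1, Vcam1 and Saa3. Icam1 averaged 2798 in the number 1 cultures and 510.1 in the other 4, a ratio of 5.49. The ratios were 2.48 for Ccl7, 1.78 for Ccl2, 1.99 for Cxcl14, 1.73 for Cxcl12, 1.83 for Il1rn and 1.32 for Vcam1. Saa3, an acute phase protein of the serum amyloid A family, had 234, 48.3 and 66.2 in Zmpste24-/- cultures, against 155, 60.4 and 122 in WT cultures, a ratio of 2.62. WT culture 3 lay between its number 1 and the remaining values. Il33 had a ratio of 2.79 that rested on Zmpste24-/- culture 1.

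The 9 members lower in number 1 included feedback genes (Nfkbia and Tnfaip3) and immediate early genes (Ier3 and Ptgs2), with Ccl20, Ereg, Nfkb2, Tnfaip2 and Tnfaip6. Ptgs2 averaged 1723 in the number 1 cultures and 4259 in the other 4, which was 2.47 times as high. By the same measure the other 4 were higher by 1.82-fold for Tnfaip6, 1.71-fold for Tnfaip3, 1.63-fold for Ier3 and 1.62-fold for Ccl20. For Nfkb2, Tnfaip2 and Nfkbia the ratios were 1.39, 1.32 and 1.15. The second Nfkb2 probe set went the other way, with a log2 gap of 0.30 for number 1 minus the others, against -0.45 for the first. The other Nfkbia probe sets had gaps of -0.56 to -0.0087. Both directions thus occurred among genes known as NF-kB targets, with Icam1 and Ptgs2 at the far ends. The Icam1 promoter printed above holds a kappaB-type match and that of Ptgs2 none, which says only that these letters are not in that window.

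**Figure D3:**
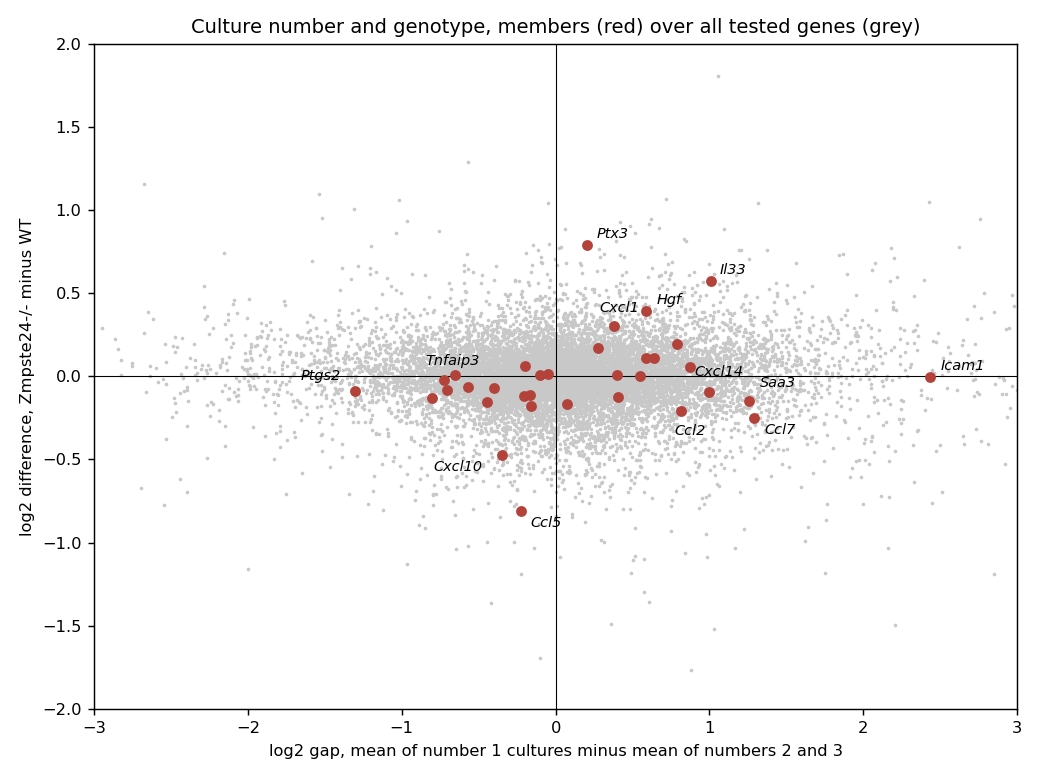
For each of the 34 members (red) and all tested genes (grey), the horizontal axis gives the log2 gap of number 1 minus the other cultures and the vertical axis the log2 difference of Zmpste24-/- minus WT. Members spread from Ptgs2 at -1.30 to Icam1 at 2.43 along the first and from Ccl5 at -0.81 to Ptx3 at 0.79 along the second, and 77 genes lie outside the axes.

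Whether the genotype difference itself depended on culture number was tested as an interaction in limma, with number 1 against numbers 2 and 3. No member was called (0 of 34, beside 0.0259% of all probe sets), and 2 had an unadjusted p under 0.05, beside 4.59%. These were Cxcl5 (interaction -1.24, SE 0.32, adjusted p = 0.585) and Il33 (1.47, SE 0.49, adjusted p = 0.834). With WT culture 3 left out, 1 member, Cxcl5, was called. Only 1 culture per genotype carries number 1, so that the spread behind this test comes from the other 4, and without WT culture 3 from Zmpste24-/- cultures 2 and 3 alone.

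Most macrophage markers moved with culture number, and few epithelial or endothelial markers did. The macrophage sum given above was 5.53 times as high in the number 1 cultures as in the other 4, and 18 of the 22 markers were higher in both of them than in any other culture. Lyz2, lysozyme of myeloid cells, had 7191, 463 and 474 in Zmpste24-/- cultures, against 4219, 593 and 871 in WT cultures. C1qa, a complement subunit of macrophages, had 1008, 3.40 and 3.18 in Zmpste24-/- cultures, against 380, 9.02 and 8.67 in WT cultures, near background outside number 1. Itgam and Aif1 were under 39.4 in all cultures. Icam1, Ccl2, Ccl7 and Saa3 were higher in the same cultures, and the part of macrophages in this was not tested. Between the number 1 cultures alone, the macrophage sum was higher in Zmpste24-/- (18500 against 10585), as Saa3 was (234 against 155), while Icam1 was at 2783 against 2813 and Ccl2 and Ccl7 were lower.

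The fibroblast label was borne out by its markers, all 12 of which were above the limit on signal in every culture. Their sum ranged from 96313 to 123500 in Zmpste24-/- cultures and from 102690 to 123790 in WT cultures. Of the 12, 6 were higher in both number 1 cultures than in any other culture (31.2% of all probe sets) and 3 were lower (27.2%). Number 1 thus differed in fibroblast genes too, in both directions, with a median log2 gap of 0.37. The gap was far larger for the matrix proteoglycan genes Dcn, at 2.91, and Lum, at 3.84. Dcn had 6233, 477 and 826 in Zmpste24-/- cultures, against 4457, 660 and 862 in WT cultures. Lum had 7892, 292 and 483 in Zmpste24-/- cultures, against 6548, 681 and 577 in WT cultures. The sum of 10 epithelial markers was lower in number 1, at 853 in Zmpste24-/- and 761 in WT, against 3194 to 3642 in the other 4 cultures. Only 2 of the 10, the keratin genes Krt18 and Krt19, were lower in both number 1 cultures than in every other culture. The other 8 summed to 675 and 561 in the number 1 cultures of Zmpste24-/- and WT, against 520 to 847 in the other 4, and Cdh1 stayed under 39.4 in all cultures. Ptgs2, Ereg and Ier3 were lower in the same cultures, and the relation was not tested. The sum of 10 endothelial markers ranged from 1010 to 1198 in Zmpste24-/- cultures and from 909.5 to 1022 in WT cultures, and the defining gene Pecam1 did not exceed 18.1.

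**Figure D4:**
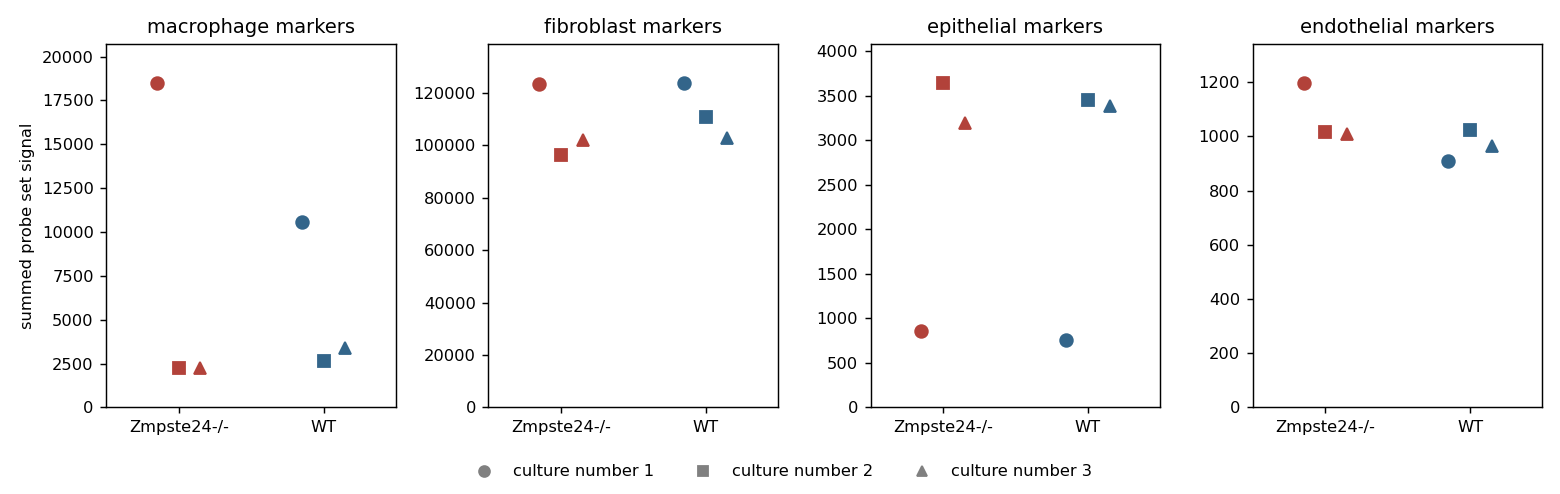
Summed probe set signal of macrophage (22 genes), fibroblast (12), epithelial (10) and endothelial (10) markers in each culture, Zmpste24-/- left of WT. The number 1 cultures (circles) lie above the others for macrophage markers and below them for epithelial markers, through Krt18 and Krt19, in both genotypes.

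The other genes of the pathway, a list of 50 receptors, adaptors, kinases and regulators, gave no call either. Of these 46 were tested, and 18 were higher and 28 lower in Zmpste24-/-, with a median of -0.02. In limma 0 passed without the block (0.0% of all probe sets) and 0 with it (0.0185%). With the block 4 had an unadjusted p under 0.05, beside 8.99% of all probe sets. In every pair 5 were higher and 10 lower, and 31.9% of all probe sets kept 1 direction. By smallest p without a block, Tab3, an adaptor of the kinase TAK1, differed by 0.37 (SE 0.22), and Tnip2, which binds A20, by 0.38 (SE 0.25). Rnf31, the catalytic subunit of the linear ubiquitin ligase, differed by -0.37 (SE 0.24). Irak1, a kinase of interleukin 1 and Toll-like receptors, had 1048, 504 and 614 in Zmpste24-/- cultures, against 1250, 938 and 744 in WT cultures, a difference of -0.47 (SE 0.32, adjusted p = 0.431 with the block). By culture number 23 of the 46 were higher in both number 1 cultures (31.2% of all probe sets) and 8 were lower (27.2%). The tumour necrosis factor receptor gene Tnfrsf1a was among the higher ones, at 4457 in Zmpste24-/- and 4752 in WT, against at most 2530 elsewhere.

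Of 21 receptors of the members, 12 were tested. With the block 0 passed, beside 0.0185% of all probe sets, and without it 0 passed, beside 0.0%. The receptors named by smallest p were Cxcr3, Met and Il1rap. Cxcr3, the receptor of Cxcl10, differed by -0.39 (SE 0.23), at signals near the limit of 39.4. It had 44.3, 29.3 and 32.0 in Zmpste24-/- cultures, against 60.2, 43.0 and 50.1 in WT cultures. Met, the receptor of Hgf, differed by -0.39 (SE 0.37), and Il1rap, the shared chain of interleukin 1 receptors, by -0.09 (SE 0.17). Met had 262, 447 and 469 in Zmpste24-/- cultures, against 301, 650 and 653 in WT cultures, lower in each pair. Met was thus lower and Hgf, by its brightest probe set, higher in Zmpste24-/- in each pair, and neither passed. The dimmest Hgf probe set was also higher in each pair. The second, with a mean difference of -0.03, was lower in Zmpste24-/- in pairs 2 and 3.

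Probe sets of 1 gene did not always agree. Of 16 members with at least 2 tested probe sets, all probe sets had the same sign of the genotype difference in 7 and differed in sign in 9. For the gap of number 1 they had the same sign in 13 and differed in 3 (Csf1, Nfkb2 and Sod2). The genotype differences of Ccl5, Cxcl10, Il33 and Icam1 rest on 1 tested probe set each.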

How the data were processed

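RNA of 3 Zmpste24-/- and 3 WT fibroblast cultures was measured on Affymetrix mouse expression arrays. The authors deposited 1 linear intensity for each probe set and array. GCOS is the tool in the submitters' processing notes; its version and algorithm are not given in the sources. Every array had the same mean of 500 after trimming 2% of the 45101 probe sets at each end, so a change in total RNA per cell cannot be seen. The 64 control probe sets were left out. Platform annotation gave 34945 probe sets 1 symbol, 932 several and 9160 none here, and 0 symbols changed through RefSeq gene identifiers (GRCm38.p6).

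Values were analysed as log2(value + 16), so fold changes of dim genes are understated. The dimmest 40% by mean were left out, and 27022 probe sets were tested in R 4.3.3 by limma 3.58.1 (trend on mean intensity, Benjamini-Hochberg adjustment over all of them). The members and gene lists were chosen with earlier results of these data known. The labels do not say whether cultures came from separate litters, so p-values measure the spread between these cultures. Cultures of equal number deviated together from their genotype means (r = 0.829, 0.588 and 0.574 for numbers 1, 2 and 3, each above 0.1). This was taken as a pairing for the block, but cultures 2 and 3 also correlated across numbers (0.551 and 0.487). Deviations from a genotype mean cancel out, so cultures 2 and 3 run together wherever number 1 stands apart. These r values therefore cannot show that cultures 2 or 3 are pairs, and results with the block rest on that assumption. The number of arrays limits the precision.

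Genes given with values in every culture are members called in any fit, with groups that do not overlap, with 1 direction in all pairs and a difference of at least 0.3, with number 1 apart by at least 1 log2 unit, or among the 8 brightest. From the pathway list 4 genes and from the receptors 3 were named by smallest p. Genes named beyond this, such as Rela, Cxcl1 and the markers, were chosen after their values were seen. Fits were tested on simulated data that held no effect of culture number, so that check does not cover the gap of number 1. Alternatives were pseudocounts of 1 and 64, no filter or 60%, quantile normalization, median centring, no trend, the replicate block, a threshold of 0.1, means of probe sets, and arrays or pairs left out. Figures were drawn with matplotlib 3.10.9.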

Additional observations from a re-analysis of the deposited data

How the results depend on the processing

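No member was called under any alternative run for the comparison of the genotypes. Over all probe sets, calls numbered 5 with the replicate block and 0 to 20 with arrays left out (4 without WT culture 1 and 20 without both number 1 cultures), against 0 under the other alternatives. The interaction with culture number called 0 members under 10 of the 11 alternatives, which were added after seeing the data, and 1 (Cxcl5) without WT replicate 3. Members higher in Zmpste24-/- numbered 12 to 19 and the median of members lay between -0.06 and 0.01 under the alternatives. Differences of Ptx3, Ccl5, Cxcl10, Hgf and Nfkbia kept their sign under each alternative that tested them; Ccl5, Cxcl10 and Hgf were not tested under the 60% filter. With arrays or pairs left out they ranged from 0.51 to 0.94 for Ptx3, -1.01 to -0.42 for Ccl5, -0.67 to -0.24 for Cxcl10, 0.11 to 0.61 for Hgf and 0.0071 to 0.14 for Nfkbia. As the mean of its probe sets Ptx3 differed by 0.38 and Hgf by 0.26. With arrays or pairs left out, signs turned and the differences ranged from -0.45 to 0.12 for Ccl2, -0.62 to 0.24 for Ccl7, -0.0853 to 0.44 for Cxcl12, -0.25 to 0.52 for Cxcl5, -0.81 to 0.81 for Icam1, -0.31 to 0.20 for Ier3, -0.0068 to 0.88 for Il33, -0.48 to 0.39 for Ptgs2, -0.74 to 0.24 for Saa3 and -0.0591 to 0.15 for Sod2. Leaving out 1 array gives number 1 unequal weight in the genotypes. Icam1, at -0.0046, was 0.00017 after quantile normalization and 0.0104 after median centring, and Sod2 was -0.0567 as the mean of its probe sets. In the comparison of the genotypes the replicate block changed no member's call.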
